A study of Arabidopsis thaliana with 6 samples.

Results

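PCC1, AT3G22235 and AT3G22240 are neighbouring genes on chromosome 3 of Arabidopsis thaliana, and all 3 stood about 4 to 5 times lower in epic2 plants than in the comparison group. They were picked by name from a table of 26765 rows because of those falls, so their levels and changes are given here as a description, with no test. RNA came from the aerial parts of Col-0 seedlings aged 17 days, grown in 16 h of light at 24 °C. The groups were wild type and epic2, a mutant whose altered gene the sources used here do not name, with 3 samples each. Expression was deposited as FPKM, a read count scaled to transcript length and library size, pooled to 1 value for each group. No spread between samples can therefore be shown, and sequencing depth is unknown. In the table the mutant is epic2 and the other group silex, a word absent from the labels, so silex was read as wild type by elimination. Titles number the samples as biological replicates without saying what was grown or harvested separately.

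PCC1 stands for PATHOGEN AND CIRCADIAN CONTROLLED 1. It encodes a small protein held at the plasma membrane by a cysteine-rich end, its transcript is induced by pathogens and follows the circadian clock, and the gene has been linked to defence and to the timing of flowering. Proteins of this kind share a cysteine-rich transmembrane module, called CYSTM, a short hydrophobic stretch at the carboxyl end that is found across eukaryotes and is linked to stress tolerance. In the RefSeq annotation of TAIR10.1, AT3G22235 is named a cysteine-rich TM module stress tolerance protein and AT3G22240 a cysteine-rich/transmembrane domain PCC1-like protein. The predicted proteins have 81 residues in PCC1, 71 in AT3G22235 and 72 in AT3G22240. Each has 7 cysteines, and all 7 lie within the last 25 residues.

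The 3 genes lie on the minus strand within 19.0 kb. In the authors' rows (TAIR10) PCC1 spans chr3:7845823-7846605, AT3G22235 spans chr3:7854419-7855814 and AT3G22240 spans chr3:7863616-7864819. Each coding sequence is split over 3 exons. The annotation places 0 other protein-coding genes and 4 pseudogenes between them, and no annotated gene overlaps any of the 3. The spliced coding sequences are shown because they bear on how reads were divided among the genes. In the lines of PCC1 and AT3G22240 the capitals mark the stretch shared base for base with AT3G22235, and in the line of AT3G22235 they mark the stretch shared with AT3G22240. The coding parts lie between 7846080 and 7846563 in PCC1, between 7854696 and 7855614 in AT3G22235 and between 7863788 and 7864675 in AT3G22240.
PCC1: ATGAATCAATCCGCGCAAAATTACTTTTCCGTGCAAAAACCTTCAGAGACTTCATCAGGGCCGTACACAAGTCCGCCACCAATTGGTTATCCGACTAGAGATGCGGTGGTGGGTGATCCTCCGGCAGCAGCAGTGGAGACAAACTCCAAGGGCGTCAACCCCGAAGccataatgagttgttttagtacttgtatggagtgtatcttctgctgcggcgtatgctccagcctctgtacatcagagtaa
AT3G22235: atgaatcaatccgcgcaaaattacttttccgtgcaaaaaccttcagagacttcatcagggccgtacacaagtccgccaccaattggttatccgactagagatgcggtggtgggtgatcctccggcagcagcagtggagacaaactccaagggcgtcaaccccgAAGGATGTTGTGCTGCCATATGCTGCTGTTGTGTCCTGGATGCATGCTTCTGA
AT3G22240: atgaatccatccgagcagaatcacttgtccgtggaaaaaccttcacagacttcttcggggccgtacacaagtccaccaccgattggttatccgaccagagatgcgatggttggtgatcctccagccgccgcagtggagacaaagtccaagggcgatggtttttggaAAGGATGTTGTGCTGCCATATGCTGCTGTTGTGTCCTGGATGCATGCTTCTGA

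AT3G22235 has the coding sequence of PCC1 at its beginning and that of AT3G22240 at its end. The first 166 of its 216 coding bases are identical to those of PCC1, and the last 53 are identical to those of AT3G22240. The stretches overlap by 3 bases, so each coding base of AT3G22235 also stands in a neighbour. Over whole aligned proteins, PCC1 and AT3G22235 were 75.3% identical, AT3G22235 and AT3G22240 were 81.9% identical, and PCC1 and AT3G22240 were 60.5% identical. The coding part of exon 3 matched at 46 of 46 bases between AT3G22235 and AT3G22240. Between PCC1 and AT3G22235 it matched at 26 of 61 aligned positions.

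The same mosaic runs through the surrounding DNA. When the region was compared with itself by BLAST, 3 segments of 97% identity or more, 8274 aligned bases in all, recurred 9051 to 10039 bases farther along. The longest, 4068 aligned bases at 99.04% identity, pairs chr3:7851427-7855486 with chr3:7860518-7864583 and covers exons 2 and 3 of AT3G22235 and of AT3G22240. A segment of 715 aligned bases at 97.5% identity pairs chr3:7846287-7846986, which runs from within exon 2 of PCC1 to beyond its annotated start, with chr3:7855338-7856051, which does the same in AT3G22235.

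**Figure D1:**
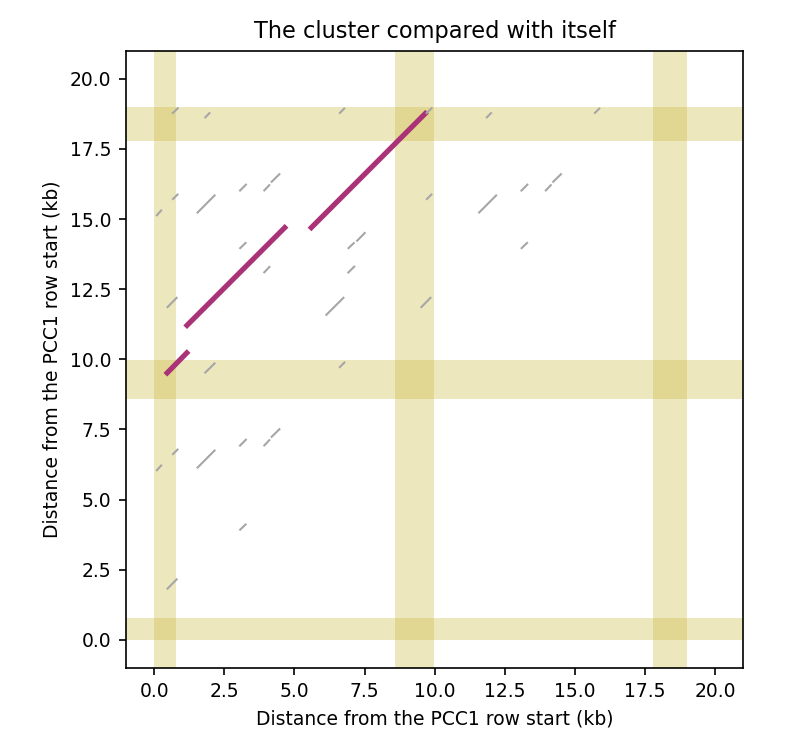
Self-comparison of the cluster, with distance in kb from the start of the PCC1 row on both axes. Each line is an aligned segment of 150 bases or more, purple at 97% identity or above and grey below. The yellow bands are, in order, PCC1, AT3G22235 and AT3G22240. The purple lines lie 9051 to 10039 bases off the diagonal.

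Libraries were sequenced as single reads, and SR50 in the labels was read as 50 bases. Windows of 50 bases were therefore cut from the spliced transcripts within the authors' rows. They were looked up in the genome and in the transcripts of the other members. Windows crossing an exon junction are not continuous in the genome at their own gene, and spliced transcripts of other genes were not searched. Of 496 windows of PCC1, 159 (32.1%) also occurred in AT3G22235 and 0 in AT3G22240, and 337 occurred at no other place. Of 486 windows of AT3G22240, 176 (36.2%) also occurred in AT3G22235, and 310 at no other place. AT3G22235 itself had 636 windows, of which 159 occurred in PCC1 and 176 in AT3G22240. A further 169 occurred only in sequence outside the windows of both, and 132 at no other place. Of those 169, 64 crossed or lay beyond the 5′ end of the PCC1 row, inside exon 1 of RefSeq PCC1. Another 56 lay wholly beyond the 3′ end of the AT3G22240 row, and windows crossing that end were not counted apart. The shares of PCC1 and AT3G22240 cover their rows alone and leave out shared sequence just outside them. With up to 2 mismatches the share found in another member moved to 32.5% for PCC1, 36.6% for AT3G22240 and 53.3% for AT3G22235. The sources used here do not say how reads that match several places were divided. The split of reads among the 3 genes is therefore uncertain, most of all for AT3G22235, while PCC1 and AT3G22240 share no window with each other.

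**Figure D2:**
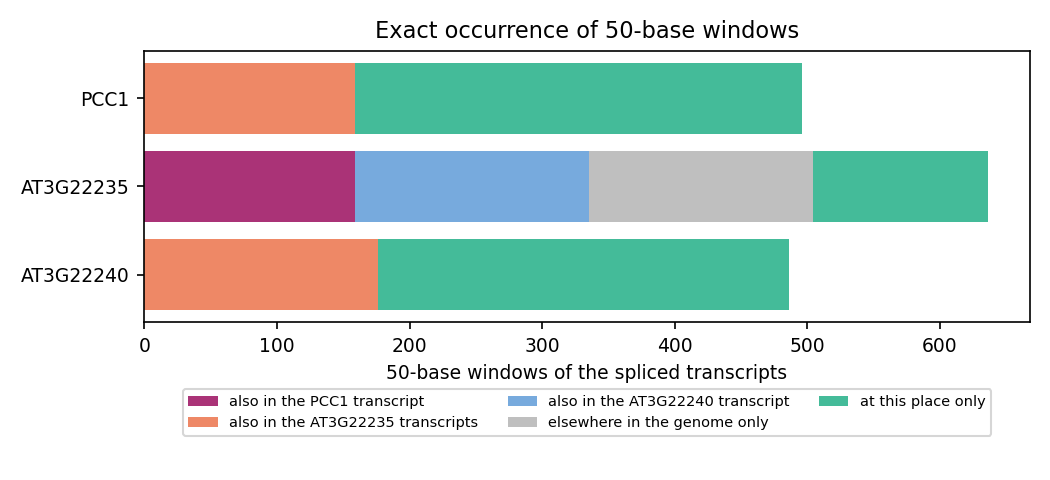
Windows of 50 bases in the spliced transcripts of each gene (x axis, number of windows), coloured by where else the same bases occur. The green part, found at no other place searched, is 337 windows in PCC1, 132 in AT3G22235 and 310 in AT3G22240. It includes windows across exon junctions that no other member shares.

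The levels fell in all 3 genes and their order stayed as it was. PCC1 had 478 FPKM in silex against 90.8 in epic2, which was 19.0% of the silex level. AT3G22235 had 1327 FPKM in silex against 325 in epic2, or 24.5% of the silex level. AT3G22240 had 86.8 FPKM in silex against 19.8 in epic2, or 22.8% of the silex level. By these values AT3G22235 was the most abundant and AT3G22240 the least in both groups, on a scale that is per transcript length. How shared reads were divided is unknown, and this order and the ranks that follow depend on it. Ranked by FPKM among all 26765 rows, AT3G22235 moved from place 88 in silex to place 439 in epic2, PCC1 from 226 to 1591, and AT3G22240 from 1545 to 6244. In bulk RNA of whole shoots, fewer cells that make a transcript and less transcript per cell cannot be told apart.

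**Figure D3:**
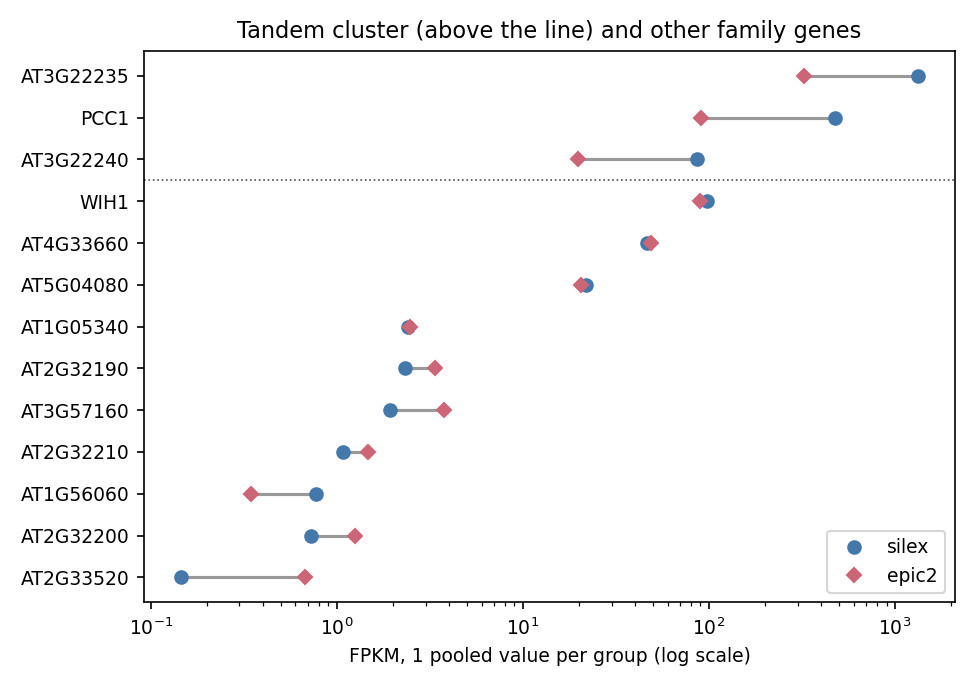
Pooled FPKM per group (x axis, log scale) of the 3 cluster genes above the dotted line and of 10 other CYSTM family genes below it, with circles for silex and diamonds for epic2. WIH3, listed at 0 in silex, is not drawn. The cluster genes lie apart by a similar step, from 1327 to 325 FPKM in AT3G22235.

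In the authors' deposited table the log2 fold change was -2.40 for PCC1, -2.03 for AT3G22235 and -2.13 for AT3G22240. The standard error implied by the authors' test statistic was 0.10 for PCC1, 0.10 for AT3G22235 and 0.16 for AT3G22240. These errors rest on the authors' own model of the 3 samples per group. PCC1 fell farther than AT3G22235 by 0.37 on the log2 scale, with a combined error of 0.14, and farther than AT3G22240 by 0.26, with a combined error of 0.19. AT3G22240 and AT3G22235 differed by 0.10, with a combined error of 0.19. Accordingly AT3G22235 stood at 2.78 times the FPKM of PCC1 in silex and at 3.58 times in epic2. Since shared reads couple these values and their division is unknown, the differences between members carry no test.

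Since reads may have been divided among the genes in several ways, sums of the same values are given too, as a description. The 3 FPKM values summed to 1892 in silex and 435.4 in epic2, a ratio of 4.34. AT3G22235 and AT3G22240 together went from 1414 to 344.7 FPKM, a ratio of 4.10. AT3G22235 made up 70.2% of the summed FPKM in silex and 74.6% in epic2, PCC1 25.3% and 20.8%, and AT3G22240 4.59% and 4.54%.

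These falls can be set beside those of other rows. The authors' table calls all 3 genes lower at q of 0.05, and the genes were chosen for it. Of the 18916 tested rows, 8.80% were called lower. Ranked from the lowest log2 fold change among called rows, PCC1 stood at place 40, AT3G22240 at 57 and AT3G22235 at 66. Among 17424 tested rows whose mean reached 1 FPKM, with a value above 0 in both groups, the median log2 fold change was 0.02, and the quartiles were -0.16 and 0.18. Of 1539 tested rows at least as abundant in silex as AT3G22240, 5 fell as far as AT3G22235 or farther. The 3 cluster genes are among these 5 because both limits were taken from them, so the count is a description and no support. The other 2, named after their values were seen, were CML41, a calmodulin-like calcium sensor, at -2.50, and EBP, an ethylene response factor, at -2.29. AT3G16670, at 78.0 FPKM in silex and so just under the limit, had -2.15.

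**Figure D4:**
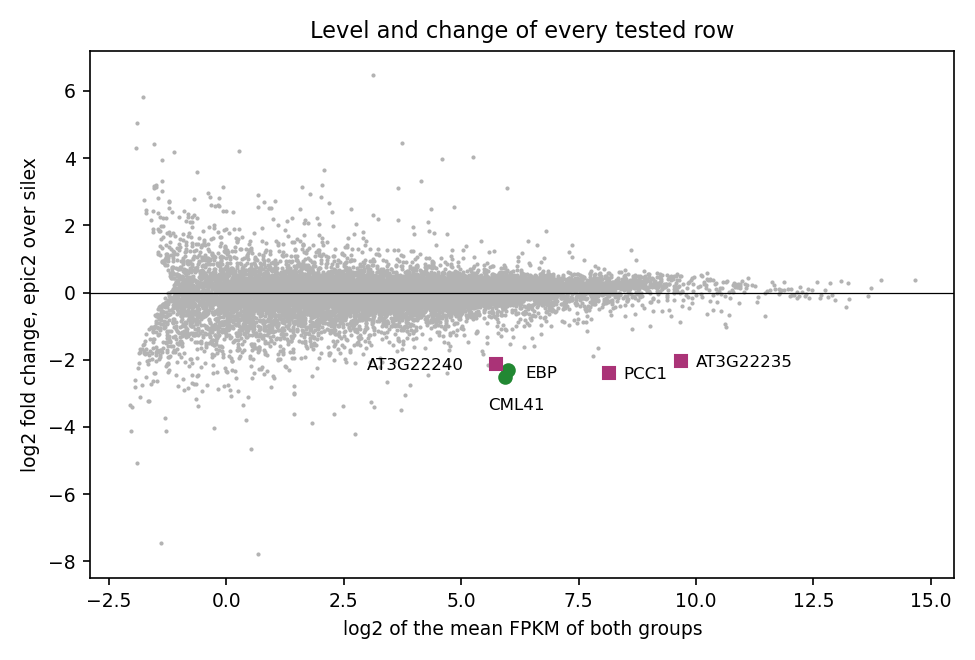
log2 fold change of epic2 over silex (y axis) against the log2 of the mean FPKM of both groups (x axis) for 18832 tested rows with a value above 0 in both groups. Purple squares are the 3 cluster genes, and green circles are CML41 and EBP. At the level of PCC1 and AT3G22235 the squares lie below the band of other rows.

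The rows nearest to each gene were sought by the distance between pairs of log2(FPKM + 1) levels in silex and epic2, that is over 2 pooled values. AT3G22240 had close company. AT3G16670 lay at a distance of 0.22 on the log2 scale, at 78.0 and 17.6 FPKM in silex and epic2. CML41, LURP1, EBP and CAX3 followed at distances of 0.27, 0.32, 0.32 and 0.37. LURP1 is named for its late induction by a downy mildew pathogen and CAX3 is a vacuolar calcium exchanger. The nearest row to PCC1 was AT5G22580, at a distance of 0.90, with 281 and 126 FPKM, followed by TIR, ERD14, AT2G46600 and AT1G62480 at 1.07 to 1.14. The nearest to AT3G22235 was the myrosinase gene TGG2, at 0.88, with 1039 and 568 FPKM, followed by CAT3, AGP15, AT1G23130 and GAMMA-TIP at 0.95 to 1.12. The rows nearest to PCC1 and AT3G22235 thus lay farther off than those nearest to AT3G22240. Few rows reach the silex levels of these 2 genes, at places 226 and 88. The distance also uses the levels on which the genes were chosen, so it is a description.

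No CYSTM family gene outside the cluster was called. The family was taken as the 11 further genes that RefSeq names as cysteine-rich transmembrane proteins. A protein search (BLASTP) with the 3 cluster members found 6 of these 11 and no others. Of 10 tested family genes 0 were called in either direction by the authors' test at q of 0.05, against 18.3% of all tested rows. By the unadjusted p-values of the authors' table, 1 of the 10, AT3G57160, was under 0.05, and at q of 0.10 it was called too, where 22.6% of all tested rows were. Their median log2 fold change was 0.26, beside 0.01 over all tested rows. The 3 family genes with a mean of 20 FPKM or more had -0.13, 0.07 and -0.08. The other tested family genes had lower levels and wider implied errors, so the median shows no direction for the family.

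WIH1, which acts in female germ cell formation, had 97.6 FPKM in silex against 89.2 in epic2. AT4G33660 stood at 46.4 and 48.8 FPKM, and AT5G04080 at 21.9 and 20.7 FPKM, with log2 fold changes of 0.07 and -0.08 and implied errors of 0.14 and 0.22. In silex WIH1 was thus at about the level of AT3G22240, and its log2 fold change was -0.13 with an implied error of 0.11. Over the 10 tested family genes the log2 fold change ran from -1.17 to 2.21 and the implied error from 0.11 to 2.11. The lowest change was that of AT1G56060, at 0.775 and 0.344 FPKM, with an implied error of 1.31. AT3G57160 had the nearest to a call, at 1.94 and 3.78 FPKM with q = 0.0888 in the authors' deposited table. AT2G33520 stood at 0.146 and 0.673 FPKM, and AT1G05340 at 2.41 and 2.48 FPKM. WIH3 was not tested, listed at 0 in silex and 0.0280 FPKM in epic2.

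Chromosome 2 holds a second tandem group of the family. AT2G32190, AT2G32200 and AT2G32210 lie between chr2:13674498 and 13678830, and the group stands next to AT2G32220, a gene of the ribosomal protein L27e family. PCC1 stands next to another L27e gene, AT3G22230, whose row ends 1226 bases from it. AT2G32190 had 2.33 FPKM in silex against 3.36 in epic2, AT2G32200 had 0.729 and 1.26 FPKM, and AT2G32210 had 1.09 and 1.47 FPKM. None of the 3 was called, with q of 0.568, 0.582 and 0.705 in the authors' deposited table, and each point value was higher in epic2. The L27e genes AT2G32220 and AT3G22230 were not called either, at 14.8 and 15.7 FPKM and at 263 and 291 FPKM.

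Rows around the cluster were called about as often as rows elsewhere. Within 50 kb on each side 20 other rows were tested and 4 were called, 2 higher and 2 lower, against 18.3% of all tested rows. Of the 12 tested rows within 25 kb, 0 were called and 0 had an unadjusted p under 0.05 in the authors' table. The called rows lay on the PCC1 side. The cell wall linker gene CWLP rose from 368 to 460 FPKM and AT3G22150 rose from 16.6 to 20.7 FPKM. AT3G22142 fell from 7.50 to 3.66 FPKM, and AT3G22160, which encodes a VQ protein of jasmonate responses, fell from 3.82 to 1.95 FPKM. FHY3, a light signalling factor that also acts on the clock, stood at 18.2 and 17.1 FPKM, and TIC, a clock regulator, at 37.1 and 40.3 FPKM, and neither was called. Neighbouring changes ran from -1.51 to 0.32 on the log2 scale. The lowest, that of AT3G22275 at 1.09 and 0.383 FPKM, was not called and had an implied error of 0.90.

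**Figure D5:**
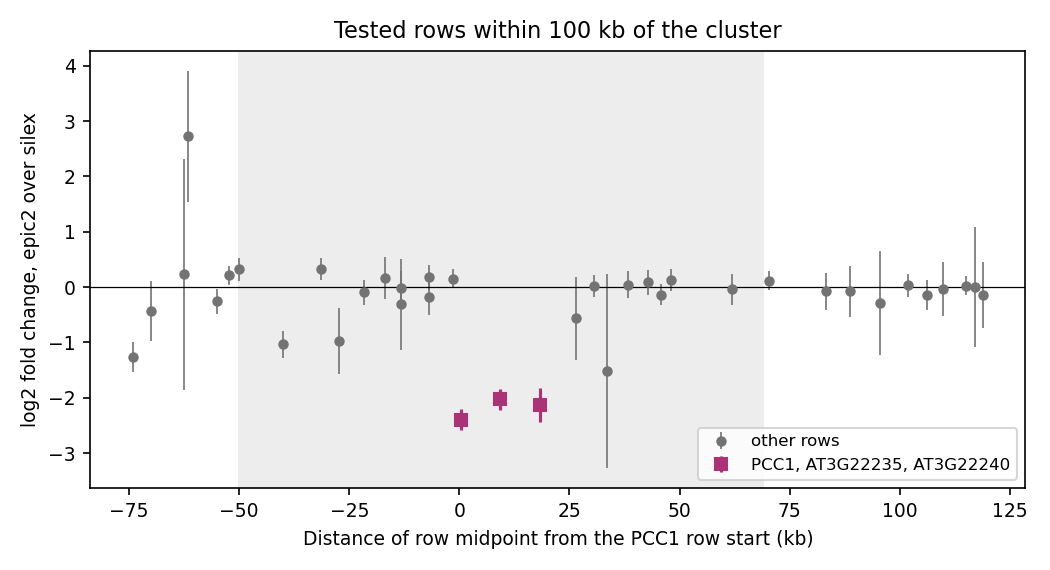
log2 fold change of epic2 over silex (y axis) against the distance of each tested row's midpoint from the start of the PCC1 row in kb (x axis). Bars are normal 95% intervals from the implied errors. The grey band marks 50 kb on each side. The purple squares, at -2.40, -2.03 and -2.13, lie below the points of the other rows.

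The 300 bases before each annotated start were compared because the members fell together. Capitals mark the 5-base word TGACG on either strand, the core of the sites bound by TGA factors, which act with NPR1 in salicylic acid responses. The windows, from RefSeq on TAIR10.1 and on the minus strand, are chr3:7846834-7847133 for PCC1, chr3:7855815-7856114 for AT3G22235 and chr3:7864896-7865195 for AT3G22240. The RefSeq start of PCC1 lies 228 bases upstream of the end of the authors' row.
PCC1: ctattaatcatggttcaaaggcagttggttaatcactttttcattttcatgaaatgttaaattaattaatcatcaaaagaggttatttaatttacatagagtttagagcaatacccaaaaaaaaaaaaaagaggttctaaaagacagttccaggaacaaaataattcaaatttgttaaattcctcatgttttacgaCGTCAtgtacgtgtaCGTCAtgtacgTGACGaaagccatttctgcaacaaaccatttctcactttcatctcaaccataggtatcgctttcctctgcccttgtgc
AT3G22235: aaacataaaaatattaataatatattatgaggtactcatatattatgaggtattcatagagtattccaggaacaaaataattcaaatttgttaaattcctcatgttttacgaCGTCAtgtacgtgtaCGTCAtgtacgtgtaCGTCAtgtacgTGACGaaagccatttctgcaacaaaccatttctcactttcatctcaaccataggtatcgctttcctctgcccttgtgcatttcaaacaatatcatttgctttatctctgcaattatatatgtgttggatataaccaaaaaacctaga
AT3G22240: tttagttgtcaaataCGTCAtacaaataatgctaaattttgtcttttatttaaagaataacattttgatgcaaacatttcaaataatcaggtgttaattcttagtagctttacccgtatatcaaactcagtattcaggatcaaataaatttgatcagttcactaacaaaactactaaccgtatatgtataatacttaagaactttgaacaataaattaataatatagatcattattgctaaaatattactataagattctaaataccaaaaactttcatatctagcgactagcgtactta

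PCC1 and AT3G22235 share a block here too. The 153 bases before the PCC1 start aligned with bases 237 to 70 before the AT3G22235 start at 91.1% identity over 168 positions, and no such block joined either to AT3G22240. The word TGACG stood at 3 places before PCC1, 4 before AT3G22235 and 1 before AT3G22240. Of 27443 protein-coding genes with such a window 21.3% held it at least once, 0.758% at 3 or more places and 0.128% at 4 or more. The places before PCC1 lay 74 to 104 bases before its RefSeq start, which is 228 bases upstream of the end of the authors' row. A window of the same length counted from that end would hold none of them. The place before AT3G22240, 281 to 285 bases before its RefSeq start, would be missed likewise. The counts for PCC1 and AT3G22240 thus rest on the RefSeq starts, while for AT3G22235 the row and RefSeq give the same start. The word TTGAC, the core of the WRKY factors' W-box, was found on either strand at 0 places before PCC1, 0 before AT3G22235 and 1 before AT3G22240, and in 50.4% of all windows. It can overlap TGACG, as in TTGACG. The evening element AAATATCT and the CCA1 site AAAAATCT, both known from clock-controlled genes, and the G-box CACGTG were found in none of the 3 windows, and in 5.64%, 7.94% and 7.09% of all windows. These words describe letters in the windows and say nothing of binding.

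Regulators of salicylic acid and immunity were more often lower than higher. Of 35 listed genes 32 were tested, and 10 were called lower, 2 higher and 20 not, where 8.80% of all tested rows were lower and 9.51% higher. Their median log2 fold change was -0.38, beside 0.01 over all tested rows. WRKY70, a transcription factor of salicylic acid responses, fell from 42.8 to 9.58 FPKM, a log2 fold change of -2.16 that lies among those of the cluster. ACD6, a membrane protein that promotes salicylic acid defence, fell with a log2 fold change of -1.55, NIMIN1, which binds NPR1, with -2.22, and CBP60G, which activates salicylic acid synthesis, with -1.69. NPR1, the salicylic acid coactivator, has 2 rows over the same interval in the authors' deposited table. The row used here was called lower, at 10.1 and 7.04 FPKM, and the other was not, at 5.930 and 5.003 FPKM with q = 0.465, so no direction is given for NPR1. With that other row 9 genes of the list were lower in place of 10. The TGA factor genes TGA2, TGA3, TGA5 and TGA6, singled out after the promoter words were seen, stood between 5.19 and 8.97 FPKM, and 0 of 4 were called or had an unadjusted p under 0.05. The defence genes PR2 and PR5 moved oppositely, PR2 from 17.6 down to 12.0 FPKM and PR5 from 10.8 up to 22.5 FPKM. ICS1, the main enzyme of salicylic acid synthesis, stood at 9.04 and 9.07 FPKM and was not called. PBS3 was the other gene called higher, from 3.57 to 5.42 FPKM. PR1 stood at 0.873 and 1.33 FPKM and was not called.

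Among clock genes 4 were called, and CCA1, LHY, TOC1 and GI were not among them. Of 22 listed clock and clock output genes 17 were tested, and 4 (23.5%) were called lower, 0 higher and 13 not, against 8.80% lower and 9.51% higher over all tested rows. The median log2 fold change was -0.08. The largest called change was in the output gene CAT3, a catalase, from 688 to 345 FPKM. PRR7, LNK2 and CHE had log2 fold changes of -0.42, -0.36 and -0.26. The morning genes CCA1 and LHY stood at 187 and 177 FPKM and at 137 and 129 FPKM, and the evening genes TOC1 and GI at 3.68 and 3.62 FPKM and at 2.78 and 2.54 FPKM, with no call among the 4. At a q of 0.01 2 of the 17 were lower, where 5.92% of all tested rows were lower.

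Of 12 listed genes of photoperiodic flowering 10 were tested, and 5 were called lower, 0 higher and 5 not, against the same background of 8.80% lower. The median log2 fold change was -0.40. AGL24, which promotes flowering, had the lowest called value, a log2 fold change of -2.45 with an implied error of 0.17. TEM1, a repressor of FT, had -1.08, FD, the partner of FT at the shoot tip, had -1.34, and SOC1, a floral integrator, fell from 27.1 to 18.8 FPKM. CO, which activates FT in long days, stood at 0.506 and 1.11 FPKM, and FT at 0.495 and 0.615 FPKM, and neither was called. PCC1 is known to bind CSN5, a subunit of the COP9 signalosome, which trims ubiquitin ligases. Of 9 tested signalosome genes 0 were called by the authors' test at q of 0.05, where 18.3% of all tested rows were, or at q of 0.10, where 22.6% were, and 0 had an unadjusted p under 0.05. CSN5A stood at 21.6 and 20.4 FPKM and CSN5B at 3.16 and 3.09 FPKM, and the changes ran from -0.08 to 0.20.

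Markers of the tissue bear on the setting of these values. The 5 green tissue genes, LHCA1, LHCB6, PSAF, PSBO1 and GAPA, stood between 2299 and 6729 FPKM and 0 of 5 were called or had an unadjusted p under 0.05, where 18.3% of all tested rows were called. Their implied errors of 0.24 to 0.39 on the log2 scale were above the median of 0.16 over tested rows. Of 5 root genes 1 was tested, CASP1, and it was called higher, where 9.51% of all tested rows were. CASP1 rose from 0.252 to 1.52 FPKM, and EXPA7 was listed at 0 in both groups. Of 5 guard cell and stomatal lineage genes 3 were called lower, where 8.80% of all tested rows were, and the list summed to 49.7 FPKM in silex and 30.4 FPKM in epic2. MYB60 stood at 10.4 and 5.24 FPKM, FAMA at 13.7 and 7.67 FPKM and KAT1 at 15.7 and 8.06 FPKM, while HT1 and EPF1 were not called. Their part in the fall of the cluster was not tested.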

How the data were processed

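Messenger RNA levels of 3 wild type and 3 epic2 samples were measured after TruSeq version 2 library preparation, per the labels' protocols. The submitters' processing notes list TAIR10 as the build and TopHat, Cufflinks and Cuffdiff as tools, and give no version. For each row the authors deposited an FPKM value of either group, their log2 fold change, a test statistic (a score whose sign is opposite to the fold change), a p-value and a q-value. The scaling between libraries is unknown here. The authors tested 18916 of 26765 rows.

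The deposited p-value matched the normal p of the statistic, with both tails counted, to within 1e-05, so the implied standard error is the fold change divided by the statistic. No fit across samples could be made. The deposited p-values rest on the authors' model of those samples and can speak for no more than them. How that model estimated the spread is unknown here. Row names were matched to RefSeq TAIR10.1, whose nuclear sequence is that of TAIR10, by name and overlap (24970 of 25543 rows with a single name). Where a gene had several rows the one with the higher mean FPKM was used. Calls are the authors' q at or below 0.05. Calls were counted per list, beside the share over all tested rows. On the log2(FPKM + 1) scale, used for distances and alternatives, changes of low genes are understated.

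The members and lists were chosen with earlier results of these data known. Genes named are the cluster, the family, rows within 50 kb, the called genes of each list with the greatest changes, at most 4, and the 5 rows nearest each cluster gene. Further list genes were named after their values were seen. They were NPR1, the TGA genes, PR1, PR2, PR5, PBS3, ICS1, CCA1, LHY, TOC1, GI, CO, FT and the signalosome subunits. Coding sequences were aligned globally with Biopython 1.88, and BLAST 2.17.0 was used at E of 1e-10 for the region and 0.001 for promoters and proteins. Scripts ran in Python 3.11.15 with scipy 1.17.1, numpy 2.4.6, pandas 2.3.3 and matplotlib 3.10.9. The adjustment and counting steps were tested on simulated data. Calls were recounted at q of 0.01 and 0.10, with a floor of 1 FPKM on the mean, under Benjamini-Hochberg adjustment over the tested rows, and with other windows, family rules, pseudocounts and scalings.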

Additional observations from a re-analysis of the deposited data

How the results depend on the processing

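The changes of PCC1, AT3G22235 and AT3G22240 kept their direction and stayed within 1 implied standard error of the value on the log2(FPKM + 1) scale under a pseudocount of 0.1 FPKM, none, centring on the median and rescaling to equal sums of FPKM, which shifts all rows by -0.10 on the log2 scale. That direction could not have changed. The pseudocounts are small beside the levels of these genes, and centring and rescaling shift all rows alike by little. Of 29 alternatives for the lists, 26 stayed within 1.5 times the count reported. That includes the second row of NPR1, an alternative chosen after seeing the data. The exceptions were the clock genes at a q of 0.01, with 2 lower in place of 4, the CYSTM family at a q of 0.10, with 1 called (AT3G57160) in place of 0, and the neighbours within 25 kb, with 0 called in place of 4. The last 2 follow from a looser threshold and fewer rows. Some of the 26 could not have moved. For the signalosome and the CYSTM family, with 0 called, a stricter q or a floor on the mean gives 0 again. The family by annotation alone is the same set of genes, and by BLASTP alone a part of it. No paired analysis was possible because the table holds 1 pooled value per group, and for the same reason no replicate could be left out. Depth is unknown, and the median implied error was 0.16 over tested rows and 0.10 at a mean of 50 FPKM or more. Reads that fit several cluster genes limit what can be said of each gene alone.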
